A study of Mus musculus with 3 samples.

Results

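Messages of 10 genes that mark cortical interneurons and their embryonic origin were followed in RNA purified with tagged ribosomes from mouse prefrontal cortex. The genes were listed by name: the distal-less homeobox genes Dlx1, Dlx2 and Dlx5, the noncoding RNA gene Dlx6os1, the factors Nkx2-1 and Lhx6 and the class marker Pvalb of the medial ganglionic eminence, and the factor Sp8 and the markers Adarb2 and Lamp5 of the caudal ganglionic eminence. All 10 had a row among the 32531 gene symbols of the count tables. The samples were 3 immunopurified (IP) libraries of the line Slc17a6-TRAP JX883, each made from 3 pooled adult mice, which were untreated and formed 1 group. Their ribosomes carried EGFP-tagged ribosomal protein L10a under control of Slc17a6, the gene of the vesicular glutamate transporter VGLUT2, and were purified with antibodies to EGFP. No input RNA, untagged control or second group was analysed here. A level is therefore the abundance of a message in purified RNA, and how much of it came along without a tagged ribosome was not tested. In such bulk RNA, fewer cells of a type and less RNA per cell cannot be told apart.

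Inhibitory interneurons of the cortex are born outside it, in the ganglionic eminences of the ventral forebrain, and migrate into it. Distal-less factors act in progenitors and young neurons of all eminences and switch on GABAergic genes. In the medial eminence Nkx2-1 activates Lhx6, which stays on in mature parvalbumin and somatostatin cells, whereas most cortical interneurons switch Nkx2-1 off as they leave. Cells of the caudal eminence express Sp8 and Adarb2 and give rise to the VIP and many of the LAMP5 classes. Several of these genes are not confined to cortical interneurons. Distal-less genes and Sp8 are used by olfactory bulb interneurons, Nkx2-1 by hypothalamic and basal forebrain neurons, and Lamp5 by some excitatory cortical neurons.

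The start regions of the members are shown first, for the letters TAATTA, the core that homeodomain proteins such as the distal-less factors recognise. RefSeq windows on GRCm38.p6, running from 250 bases before to 50 bases after an annotated start, were matched for 9 of the 10 genes and not for Dlx5. TAATTA, which reads the same on both strands, was found in 1738 of 32851 windows of that length (5.29%) and in 3 of the 9 members matched, against 6.12% of 27025 genes. A gene was counted if any of its windows held the letters, and Lhx6 and Sp8 had 3 windows each. Shares by gene, here and for the GC box below, are therefore not matched for the number of windows. The members that held TAATTA are given 5′ to 3′ on the gene's strand, with 30 bases on either side and the match in capitals. The Dlx6os1 windows held 3 matches at 2 annotated starts (chr6:6869628-6869693, chr6:6869572-6869637 and chr6:6861822-6861887, minus strand), Sp8 held 1 (chr12:118847341-118847406, plus strand) and Adarb2 held 1 (chr13:8202785-8202850, plus strand).
Dlx6os1, first start, 130 bases upstream: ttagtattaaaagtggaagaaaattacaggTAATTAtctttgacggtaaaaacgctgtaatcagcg
Dlx6os1, first start, 74 bases upstream: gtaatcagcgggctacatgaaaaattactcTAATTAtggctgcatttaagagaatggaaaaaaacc
Dlx6os1, the second start, 174 bases upstream: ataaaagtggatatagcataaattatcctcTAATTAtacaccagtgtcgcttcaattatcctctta
Sp8, the third start, 188 bases upstream: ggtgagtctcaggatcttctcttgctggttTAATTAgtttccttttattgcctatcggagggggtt
Adarb2, 51 bases upstream: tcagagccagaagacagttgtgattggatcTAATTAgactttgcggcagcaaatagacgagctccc
A match describes the letters of these windows and says nothing of binding. The start regions also differed in CpG content. The windows of Dlx1 and Dlx2 held 27 and 29 CpG dinucleotides, whereas those of Dlx6os1 held 5 and 3, against a median of 7 over all windows. The GC box GGGCGG, counted on both strands, was present in 6 of the 9 members matched, against 38.2% of genes.

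Named genes held 12592174 counts in replicate 1, 8964137 in replicate 2 and 12648577 in replicate 3, and no pair of libraries agreed within sampling noise (chi-square of 12.5 to 17.4 per degree of freedom). CPM is a gene's counts scaled to a common total of named genes, and 95% intervals are exact Poisson intervals of the count, which cover counting error only. Where no read was counted, the limit used in place of an interval is 3 counts, which is 0.238 CPM in replicate 1, 0.335 in replicate 2 and 0.237 in replicate 3. All 10 cortical excitatory markers on a list, among them Slc17a7 and the driver gene Slc17a6, reached 1 CPM in every library, as did all 8 olfactory bulb and all 10 striatal markers listed, so this count does not tell these regions apart. Of the 10 interneuron lineage genes, 8 reached 1 CPM in every library, against 37.9% of all symbols, and the exceptions were Dlx2 and Sp8.

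**Figure D1:**
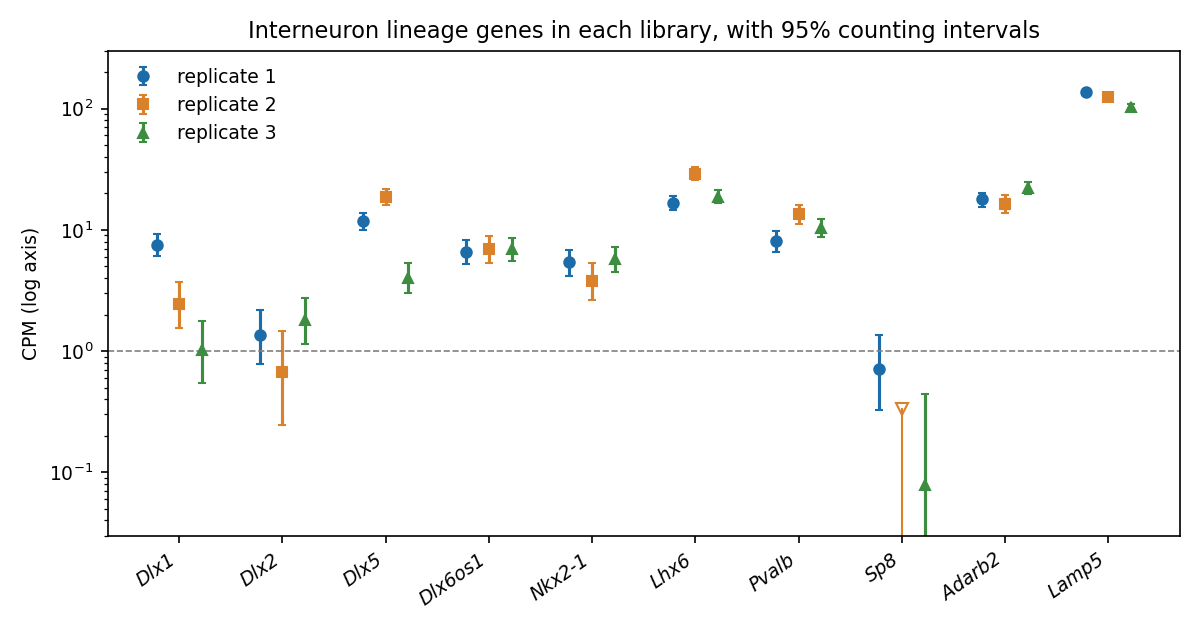
CPM (log axis) of the 10 genes in replicates 1 (circles), 2 (squares) and 3 (triangles), with exact 95% Poisson intervals, the dashed line at 1 CPM and an open triangle for the limit of 3 counts where no count was seen. Lamp5 stood above 100 CPM in all libraries and Sp8 under 1 CPM in all, while Dlx1 and Dlx5 were spread most widely among the genes with a count in every library.

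The distal-less genes were low and uneven. Dlx1 (ENSMUSG00000041911.3, mm10 chromosome 2, 71528113 to 71533981), a homeodomain factor needed for survival of dendrite-targeting interneurons, had 95, 22 and 13 counts in replicates 1, 2 and 3, or 7.54, 2.45 and 1.03 CPM. Replicate 1 was high, and its interval of 6.10 to 9.22 CPM lay above those of replicate 2 (1.54 to 3.72) and replicate 3 (0.547 to 1.76). Its neighbour Dlx2 (ENSMUSG00000023391.8, chromosome 2, 71543408 to 71546754), which lies 9426 bases away on the opposite strand and acts largely in progenitors, had 17, 6 and 23 counts, or 1.35, 0.669 and 1.82 CPM. The 3 intervals of Dlx2 overlapped. Replicate 3 was thus lowest for Dlx1 and highest for Dlx2, its neighbour. Of the exonic bases of Dlx1, 6.21% were shared with the antisense gene Dlx1as, which had 1.75, 1.78 and 0.237 CPM.

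Dlx5 and Dlx6os1 belong to the second distal-less locus of this list, on chromosome 6. Dlx5 (ENSMUSG00000029755.10, 6877805 to 6882085), a factor that remains expressed in many mature interneurons, had 149, 167 and 51 counts, or 11.8, 18.6 and 4.03 CPM. All 3 intervals stood apart, and replicate 2, the highest, stood 4.62-fold above replicate 3, the lowest. Dlx6os1 (ENSMUSG00000090063.6, 6820189 to 6871592) is a long noncoding RNA gene that runs antisense around Dlx6 and is known to regulate that locus during development. It had 83, 62 and 88 counts, or 6.59, 6.92 and 6.96 CPM, the most even of the members, with a coefficient of variation of 2.94%. This noncoding RNA was counted in the immunopurified RNA of each library, and whether it was bound to ribosomes was not tested. Dlx6 itself had 0.874, 0.558 and 1.90 CPM, with 11, 5 and 24 counts, and its libraries overlapped within counting error. In the annotation used for exon lengths, 7.42% of the exonic bases of Dlx6os1 were shared, with Gm27905 and Gm27699 on the opposite strand and not with Dlx6. Reads on shared bases cannot be told apart if strand was not used in counting. Neither strand use nor the annotation used in counting is given in the sources used here.

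Among genes of the medial eminence, Nkx2-1 (ENSMUSG00000001496.15, chromosome 12, 56531958 to 56536908), the factor that sets medial identity, had 68, 34 and 73 counts, or 5.40, 3.79 and 5.77 CPM. The libraries overlapped within counting error. The message of this mostly embryonic factor was present in adult tissue in every library. Markers of hypothalamic and preoptic neurons summed to 21.9, 44.0 and 54.5 CPM, of which 2 of 8 reached 1 CPM in every library, from Agrp at 0.184 ± 0.319 TPM to Trh at 104 ± 45.0 TPM, and the orexin gene Hcrt stood at 0.238, 0 and 3.32 CPM. Markers of basal forebrain cholinergic neurons summed to 13.7 to 16.8 CPM, with 3 of 6 at 1 CPM or more in every library, Gbx1 at 0 counts throughout and Ngfr highest at 7.68 ± 3.06 TPM. Their part in the Nkx2-1 level was not tested.

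Lhx6 (ENSMUSG00000026890.19, chromosome 2, 36081953 to 36105408), a LIM homeodomain factor kept in adult parvalbumin and somatostatin cells, had 211, 260 and 238 counts, or 16.8, 29.0 and 18.8 CPM. Replicate 2 was high, with an interval of 25.6 to 32.8 CPM that lay above those of both other libraries. Pvalb (ENSMUSG00000005716.16, chromosome 15, 78191114 to 78206400), the calcium buffer of fast-spiking basket and chandelier cells, had 101, 120 and 131 counts, or 8.02, 13.4 and 10.4 CPM. Here too replicate 2 was highest and replicate 1 lowest, and the intervals of that pair of libraries did not overlap.

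Among genes of the caudal eminence, Sp8 (ENSMUSG00000048562.7, chromosome 12, 118846329 to 118852576), a zinc finger factor, had 9, 0 and 1 counts, or 0.715, 0 and 0.0791 CPM. Replicates 2 and 3 lay under the limit of 3 counts, so the gene was barely detectable at this depth. Its relative Sp9 was at 4.92, 5.58 and 5.69 CPM. Adarb2 (ENSMUSG00000052551.16, chromosome 13, 8202866 to 8768747), which encodes the catalytically inactive RNA-editing relative ADAR3 and marks caudal-derived cells, had 224, 147 and 280 counts, or 17.8, 16.4 and 22.1 CPM. Replicate 3 was highest, with an interval of 19.6 to 24.9 CPM just above that of replicate 2 (13.9 to 19.3), and the coefficient of variation was 15.9%. Lamp5 (ENSMUSG00000027270.14, chromosome 2, 136052239 to 136069917), a lysosome-associated membrane protein of neurons and marker of neurogliaform cells, had 1715, 1109 and 1314 counts, or 136, 124 and 104 CPM. It was the most abundant member in each library, and its mean lay at the 85.8th percentile of the 12321 genes that reached 1 CPM in every library. How much of it came from excitatory neurons, whose markers summed to 5313 to 5656 CPM and ran from Emx1 at 6.87 ± 3.56 TPM to Camk2a at 1935 ± 182 TPM, was not tested.

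For comparisons between genes, counts were divided by the length of merged exons and scaled to a common total (TPM, a level per length). On this scale Lamp5 led with 207 ± 27.4 TPM (SD, n = 3), followed by Pvalb at 51.0 ± 13.1, Dlx5 at 25.5 ± 16.2 and Lhx6 at 22.5 ± 6.89 TPM. Below them came Nkx2-1 at 8.79 ± 1.84, Adarb2 at 7.17 ± 1.15 and Dlx6os1 at 6.55 ± 0.212 TPM. Dlx1 at 3.41 ± 3.16, Dlx2 at 2.24 ± 1.01 and Sp8 at 0.290 ± 0.429 TPM were lowest. The median of the members was 7.98 TPM. Of the 9 neighbouring pairs in this order, 5 differed by more than 1 SD of the within-library log2 difference and in the same direction in 3 of 3 libraries. The pairs Dlx5 and Lhx6, Adarb2 and Dlx6os1, Dlx6os1 and Dlx1, and Dlx1 and Dlx2 did not differ beyond their spread. Nkx2-1 exceeded Adarb2 by 0.27 ± 0.19 log2 units, but with the length of the longest transcript the difference was -0.63, since the merged exons of Adarb2 span 13114 bases and its longest transcript 6721. Pvalb exceeded Dlx5 by 1.20 ± 1.05 units, and by 0.59 without replicate 3.

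**Figure D2:**
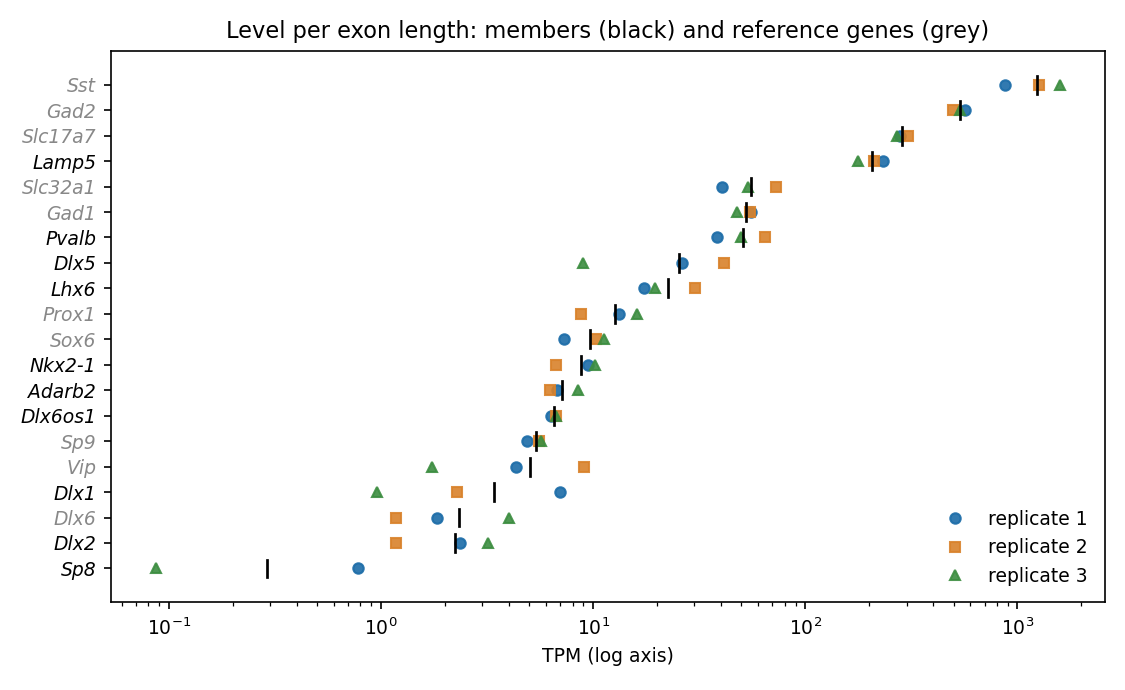
Level per exon length in TPM (log axis) of the 10 members (black names) and of 10 reference genes (grey names), with 1 symbol per library and a black tick at the mean; Sp8 in replicate 2, at 0, is not drawn. Lamp5 lies at 207 TPM below Slc17a7, Pvalb beside Slc32a1 and Gad1, and the other distal-less and eminence genes below.

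Members were then set against their counterparts within each library, as log2 of TPM + 0.5. With 3 libraries the smallest p of the exact two-sided sign-flip permutation test is 0.25, so no contrast could pass 0.05. Of the branch markers kept in adult cells, Lhx6 exceeded Adarb2 by 1.55 ± 0.55 log2 units (2.93-fold) in 3 of 3 libraries (exact p = 0.25). Without a length correction the difference was 0.16 ± 0.56 and Lhx6 was higher in 1 of 3 libraries. Of the early factors, Nkx2-1 exceeded Sp8 by 3.66 ± 0.63 units in 3 of 3 libraries (exact p = 0.25), a size that depends on the pseudocount because Sp8 had 0 or 1 count in replicates 2 and 3. Of the class markers, Lamp5 exceeded Pvalb by 2.03 ± 0.47 units (4.10-fold) in 3 of 3 libraries (exact p = 0.25), and by 11.1-fold without a length correction. In the second distal-less locus, Dlx5 exceeded Dlx6os1 by 1.63 ± 1.11 units in 3 of 3 libraries (exact p = 0.25), by 1.97, 2.55 and 0.39 units in replicates 1, 2 and 3. Without a length correction it was higher in 2 of 3 libraries, by 0.48 ± 1.08 units, and without replicate 3 the difference was 2.26. In the first locus Dlx1 exceeded Dlx2 in replicates 1 and 2 but not in replicate 3, by 1.39, 0.73 and -1.34 units (exact p = 0.75).

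Variation between libraries was tested over the whole table with the goodness of fit of 1 common mean in edgeR, which sets each gene against genes of like abundance. Of the 10 members, 9 had at least 10 counts in a library and were tested, and Sp8 was not. None of the 9 varied beyond the trend at an adjusted p of 0.05 in edgeR, against 36 of 14774 genes (0.244%). The limma variance test also called 0 of the 9. At an unadjusted p under 0.05, edgeR gave 2 of the 9, Dlx5 (adjusted p = 0.213) and Dlx1 (adjusted p = 0.516), against 7.22% of all genes tested. Dlx5 was no longer among them without replicate 3, and Dlx1 without replicate 1 or without replicate 3. When all genes were given 1 common dispersion, Dlx1 was called (adjusted p = 0.0071 in edgeR) and Dlx5 was not (0.0568). Over all alternatives the edgeR and limma adjusted p of Dlx1 ran from 0.0071 to 0.999. The 95% counting intervals failed to overlap for 6 of the 10 members, against 66% of genes tested, a share near that of genes at large. The coefficient of variation was 93.2% for Dlx1 and 63.5% for Dlx5, and its median was 25.4% over the 9 members tested, 22.8% over tested genes at 3 to 30 CPM and 19.3% over all genes tested. Replicates 1, 2 and 3 were highest for 3, 3 and 4 of the 10 members, near the shares over all genes tested (34.1%, 32.8% and 33.1%). The members summed to 212, 215 and 175 CPM, lowest in replicate 3, a sum that Lamp5 dominates.

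**Figure D3:**
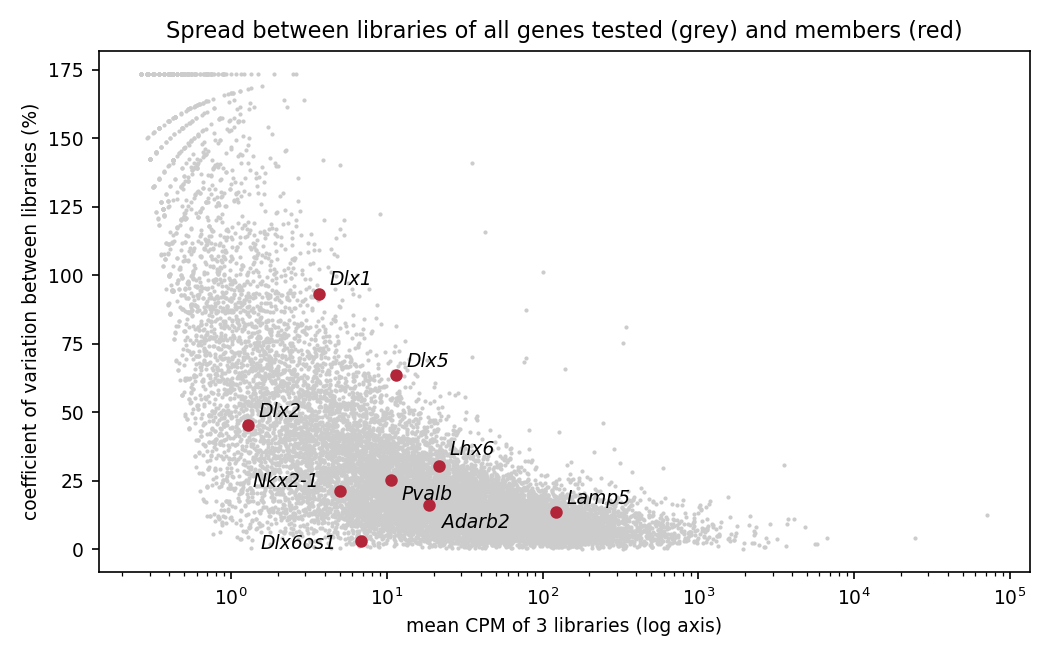
Coefficient of variation between the 3 libraries (%) against mean CPM (log axis) for 14774 genes tested (grey) and the 9 members tested (red). Dlx1 at 93.2% and Dlx5 at 63.5% lie at the upper edge for their abundance, and Dlx6os1 at 2.94% at the lower edge.

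Levels were also expressed relative to Slc32a1, the vesicular transporter of GABA that inhibitory neurons share, a reference chosen after the values were seen, so the narrow ranges that follow are a description only. Slc32a1 had 22.7, 40.4 and 29.9 CPM, the same order of libraries as Pvalb and Lhx6. Pvalb stood at 94.9%, 89.1% and 93.1% of the Slc32a1 level per length in replicates 1, 2 and 3, so a 1.67-fold range in CPM narrowed to 1.07-fold. Lhx6 stood at 42.9%, 41.8% and 36.7%, a range of 1.17-fold against 1.73-fold in CPM. Over the 13075 genes tested that had a length and a count in every library, the median range was 1.40-fold in CPM and 1.94-fold relative to Slc32a1. Other members behaved differently. Adarb2 stood at 16.7%, 8.66% and 15.8% and Nkx2-1 at 23.4%, 9.24% and 19.0%, both lowest in replicate 2. Dlx5 stood at 64.4% and 57.0% in replicates 1 and 2 and at 16.7% in replicate 3. Other genes of the medial branch narrowed less: the range of Sst was 1.69-fold against 1.81-fold in CPM, and that of Sox6 1.48-fold against 1.54-fold. The choice of reference mattered. Against the GABA-synthesizing enzyme gene Gad1, Pvalb stood at 69.6%, 118% and 105% and Lhx6 at 31.5%, 55.4% and 41.3%, ranges of 1.70-fold and 1.76-fold that were no narrower than in CPM. With 3 libraries no correlation was computed, and another annotated gene overlapped 24.9% of Slc32a1's exonic bases.

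**Figure D4:**
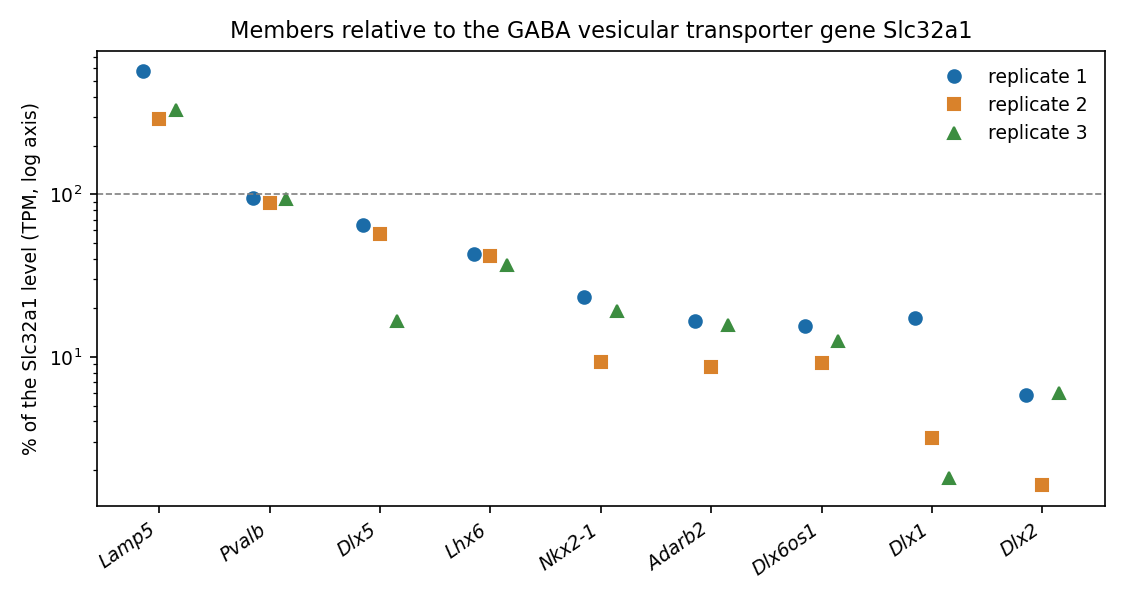
Level of 9 members as a percentage of the Slc32a1 level in the same library (both in TPM, log axis), with 1 symbol per library and the dashed line at the Slc32a1 level; Sp8 is not drawn. Pvalb at 89.1% to 94.9% and Lhx6 at 36.7% to 42.9% are the tightest, and Dlx1 and Dlx5 spread widely.

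Genes listed for both branches were counted in the wider set, but which cells their messages came from was not tested. Some of them, such as Tac1, are also on the list of another cell type. On the list of genes shared by GABAergic neurons 7 of 11 reached 1 CPM in every library, led per length by the enzyme gene Gad2 at 533 ± 37.0 TPM, while the distal-less gene Dlx3 had 0 counts. On the medial eminence list 15 of 16 did, with a median of 44.8 TPM, or 27.9 CPM without a length correction. It was led by the peptide gene Sst at 870, 1265 and 1579 TPM, and its lowest member was Chodl, a marker of long-range somatostatin cells, at 1.86 ± 0.477 TPM. Sox6, which acts after Lhx6 in medial-derived cells, stood at 9.63 ± 2.08 TPM. On the caudal eminence list 14 of 16 did, with a median of 14.3 TPM, or 20.5 CPM without a length correction. The peptide gene Cck, which excitatory neurons also express, led it at 1642 ± 210 TPM, and Npas1 was lowest at 1.65 ± 0.370 TPM. Prox1, a factor of caudal-derived cells, stood at 12.7 ± 3.65 TPM and Vip, the peptide gene of the bipolar class, at 4.31, 9.05 and 1.75 TPM.

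In edgeR 0 of 97 tested genes on the 13 lists of cell type markers varied at an adjusted p of 0.05, against 0.244% of all genes tested. An unadjusted p under 0.05 was found for 14 of the 97, against 7.22% of all genes tested. On the medial list 3 of 16 were among these: Nos1, the nitric oxide synthase gene of long-range inhibitory cells (17.5, 45.1 and 19.4 CPM, adjusted p = 0.131), Sst (126, 182 and 227 CPM, adjusted p = 0.223) and Crhbp (13.2, 9.26 and 23.3 CPM, adjusted p = 0.569). On the caudal list 0 of 16 were, and the lists were not compared by a test. The shared list summed to 964, 965 and 968 CPM in replicates 1, 2 and 3, the medial list to 813, 924 and 961 CPM and the caudal list to 802, 899 and 852 CPM. These sums are dominated by their most abundant genes, such as Gad2, Sst and Cck.

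Markers of neighbouring cell types that are known to use distal-less genes were also counted, although some of them are not specific: Calb2 is also on the caudal list and Tac1 on the medial list. Olfactory bulb interneuron markers reached 1 CPM in every library in 8 of 8 cases, from Pax6 at 3.04 ± 0.187 TPM to Gng4 at 186 ± 6.71 TPM, and summed to 462 to 537 CPM. The list was lowest in replicate 3, as were Dlx1 and Dlx5, at 511, 537 and 462 CPM. Striatal projection neuron markers reached it in 10 of 10 cases, from Adora2a at 10.9 ± 8.19 TPM to Penk at 616 ± 160 TPM, and summed to 530, 649 and 700 CPM, highest in replicate 3. The part of either cell type in the distal-less values was not tested. Of the list of progenitors and immature neurons, 3 of 7 reached 1 CPM in every library. The progenitor factor Gsx1 had 0 counts. Outside neurons, astrocyte markers ran from Aldh1l1 at 6.29 ± 2.42 to Aldoc at 534 ± 93.5 TPM and the lowest oligodendrocyte marker was Opalin at 1.65 ± 0.995 TPM. Microglial markers ran from C1qa, with 0 counts, to Ctss at 27.7 ± 8.29 TPM, and endothelial markers from Cldn5 at 0.187 ± 0.323 to Itm2a at 16.0 ± 1.66 TPM.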

How the data were processed

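Polysomes tagged with EGFP-L10a were immunopurified from prefrontal cortex and their RNA was sequenced, per the labels' protocols, in 3 libraries of 3 mice each. Whether pools shared animals is not stated, so p-values measure the spread between these libraries. Raw counts by gene symbol were deposited by the authors, with HTSeq summary lines. The submitters' processing notes name STAR 2.0.0e, HTSeq and mm10. The annotation, settings and strand use were not given in the sources used here. Lines naming no gene held 27.2% to 28.3% of counts and were left out of totals and tests.

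CPM were computed over named genes. TPM used merged exon lengths of GENCODE M21 on mm10, matched by symbol for 94.1% of genes that reached 1 CPM in every library and for all 10 members. Log2 values used a pseudocount of 0.5. Variation was tested in edgeR 4.0.16 (R 4.3.3) by the deviance of an intercept-only negative binomial fit (TMM, trended dispersion, chi-square with 2 degrees of freedom, Benjamini-Hochberg over the 14774 genes reaching 10 counts in any library). This and the limma 3.58.1 variance test were tested on simulated data in which only more abundant genes were moved. Dlx1 and Dlx2 lay below that abundance, so the power to call genes as low as these was not tested. DESeq2 1.42.0 gave alternative size factors. Python 3.11.15, numpy 2.4.6, pandas 2.3.3, scipy 1.17.1 and matplotlib 3.10.9 were used.

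All members are named, with the highest and lowest gene per length of each marker list, except genes that are not reported here. A fixed set of reference genes is also named, and some of its values appear only in a plot. Dlx1as, Hcrt, Gsx1 and the genes with an unadjusted p under 0.05 were named after their values were seen. Members and lists were chosen with earlier results of these data known.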

Additional observations from a re-analysis of the deposited data

How the results depend on the processing

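No paired analysis was possible because the libraries form 1 group. Depth limits Sp8, Dlx2 and the lower values of Dlx1, which rest on 23 counts or fewer per library. The count of genes varying between libraries, 36, was 17 with at least 10 counts required in every library, 12 with the limma variance test, 1097 with a common dispersion, and 16 to 21 without each replicate in turn; by their construction the last have fewer libraries. The count of members called, 0, became 1 (Dlx1) with a common dispersion, and the cause was not tested. Dlx1 minus Dlx2, 0.26 log2 units, ran from -0.31 to 1.06 without each replicate in turn and was negative without replicate 1. Nkx2-1 minus Adarb2, 0.27 units, became -0.63 with longest transcripts and -1.82 in CPM, where only the length assigned to each gene differs. The means of the other 4 role-matched contrasts kept their sign under all alternatives run: Lhx6 minus Adarb2 ran from 0.16 to 1.74, Nkx2-1 minus Sp8 from 2.94 to 5.10, Pvalb minus Lamp5 from -3.48 to -1.76 and Dlx5 minus Dlx6os1 from 0.48 to 2.26. In CPM, Lhx6 was higher in 1 of 3 libraries and Dlx5 in 2 of 3. Neighbouring pairs also moved by more than 1 SD in CPM: Pvalb minus Dlx5 to 0.088, Dlx5 minus Lhx6 to -1.07, Lamp5 minus Pvalb to 3.48 and Adarb2 minus Dlx6os1 to 1.39. With longest transcripts the last pair moved to 0.85 and Lamp5 minus Pvalb to 2.52, and with a pseudocount of 0.1 Dlx2 minus Sp8 moved to 3.10. Members at 1 CPM or more in every library numbered 7 to 9 under all alternatives, which included thresholds of 0.5 and 2 CPM. Exonic bases not shared with another gene were an alternative length chosen after seeing the data.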
